A study of Mus musculus with 6 samples.

Results

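Activins, inhibins, anti-Müllerian hormone (AMH) and the growth differentiation factors (GDFs) are secreted ligands of the TGFB superfamily, and 10 genes of these branches were followed here by symbol, out of 35688 gene rows in the deposited table. They are Inha, Inhba and Inhbb, which encode the subunits of inhibin and activin, the activin-binding proteins Fst and Fstl3, the ligands Gdf6 and Gdf15, and the receptors Amhr2, Acvr1 and Acvr2a. All 10 symbols occurred once in the table, and all 10 passed the abundance filter of a mean of 1 TPM over the 6 libraries. RNA was measured in m1102 cells, a mouse line from the ovarian surface epithelium, which covers the ovary and is torn at ovulation. The first group was given 10 ng/mL TGFB1 for 4 days (3 libraries) and the second was untreated (3 libraries). Both were the same line, grown in the same EGF-supplemented medium with serum, and no genetic change is named. The labels name 1 line and do not say that libraries came from separately treated cultures, so p-values reflect the spread between these libraries alone, and that spread may be technical.

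An activin is a dimer of beta subunits, encoded by Inhba and Inhbb, whereas an inhibin pairs a beta subunit with the alpha subunit encoded by Inha and opposes activin at its receptors. Activins, AMH and the BMP-like GDFs bring together a type II receptor, such as those encoded by Acvr2a and Amhr2, and a type I receptor. The type I receptor, such as that encoded by Acvr1, then phosphorylates SMAD proteins. In the ovary these factors are best known from follicles, where granulosa cells make inhibin, activin and AMH. AMH from the testis acts through Amhr2 in the mesenchyme around the fetal Müllerian duct, where it causes the duct to regress.

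After TGFB1, Gdf6 rose to 97.6 ± 32.3 TPM, against 12.98 ± 2.81 TPM in untreated cells (mean ± SD with n = 3 in each group, as for all means given), and Amhr2 fell to 3.75 ± 2.69 TPM, against 22.9 ± 4.65 TPM. Gdf15, Acvr1 and Inhbb also rose and Inha also fell, while Inhba, Fst, Fstl3 and Acvr2a did not pass the test. That made 6 of 10 genes called, 4 higher and 2 lower (limma on log2(TPM + 1), Benjamini-Hochberg adjusted p under 0.05 over 12257 tested genes), where 30.4% of all tested genes were called, 15.8% higher and 14.6% lower. Treated and untreated values were fully separate for 7 of the 10, 5 higher and 2 lower (the 6 called genes and Inhba), as they were for 49.8% of all tested genes, 26.3% higher and 23.6% lower. The median log2 fold change (TGFB1 over untreated) was 0.15 over the 10 genes and 0.02 over all tested genes. In bulk RNA, fewer cells that express a gene and less of its RNA per cell cannot be told apart.

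**Figure D1:**
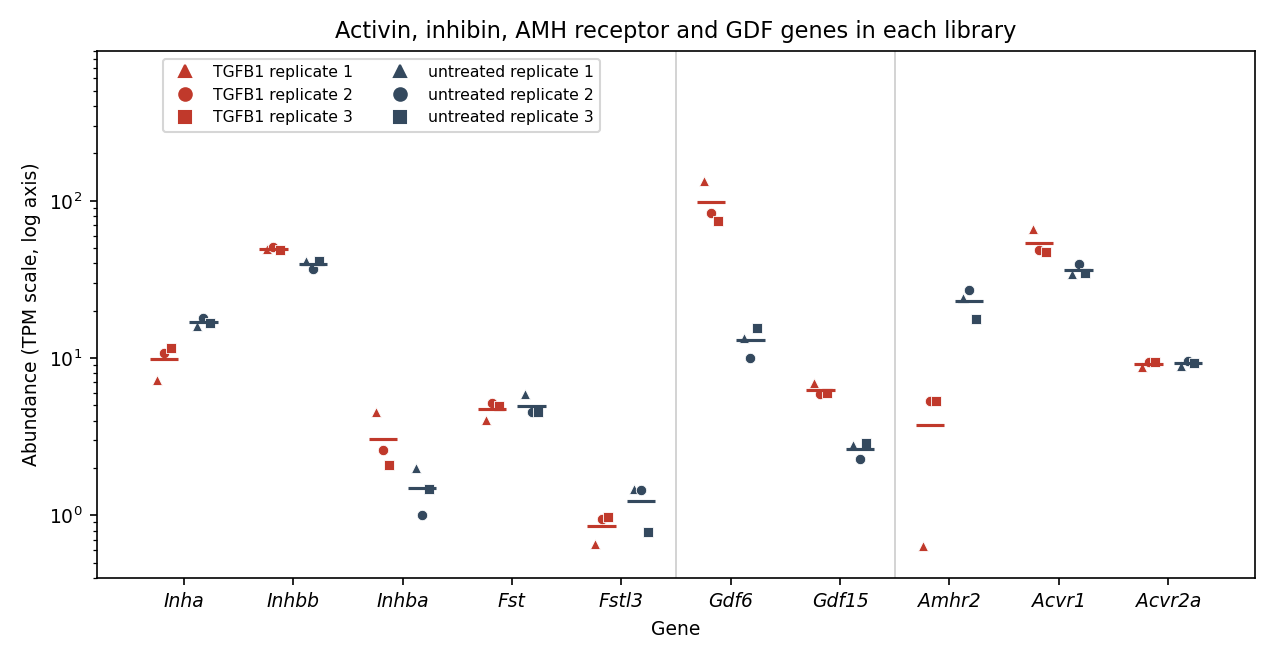
Abundance (TPM scale, log axis) of the 10 genes in each of the 3 TGFB1 libraries (left of each pair) and the 3 untreated libraries (right of each pair); each point is a library, its shape gives the replicate number, and bars are group means. Gdf6 lies between 74.3 and 134 TPM with TGFB1, above all untreated values, and the Amhr2 value of TGFB1 replicate 1 is 0.639 TPM, below the other treated libraries.

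The treated libraries were not alike over the whole table. On the first principal component of all tested genes TGFB1 replicate 1 scored 46.6, against 20.2 and 18.1 for TGFB1 replicates 2 and 3, with the untreated libraries between -29.9 and -27.1. Of the 6 called genes, 5 (all but Inhbb) had TGFB1 replicate 1 as the treated library farthest from the untreated mean, as did 70.1% of all called genes. Without that library all 6 were still called, with log2 fold changes of 2.54 for Gdf6, 0.93 for Gdf15, 0.41 for Acvr1, 0.31 for Inhbb, -0.56 for Inha and -1.91 for Amhr2.

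Markers were read to check the labelled cell type. Of 14 listed markers of ovarian surface epithelium and mesothelium, 9 had a mean of at least 1 TPM. They included Wt1 (144 ± 35.1 TPM with TGFB1 and 181 ± 11.6 TPM without), Krt7, Krt18, Msln and Upk3b, while Krt8 and Krt19 were low, at up to 0.414 and 2.01 TPM in any library, and Lgr5, Lhx9 and Aldh1a2 were near 0. Of the 31-base words of Krt8, 36.05% occur in another gene, so its level is uncertain. With no filter Krt19 was called lower (limma, log2 fold change -1.09, adjusted p = 0.0143), and Krt8, Lgr5, Lhx9 and Aldh1a2 were not called. The summed level of the 14 was 1225 to 1677 TPM in the treated libraries and 2203 to 2251 TPM in the untreated ones. Of the 9 tested markers 4 fell (Krt7, Krt18, Upk3b and Gpm6a), where 14.6% of all tested genes were called lower. The Upk3b call held in 10 of 15 alternatives and was lost with no filter, without a variance trend and without any one untreated library (adjusted p up to 0.107), while the other 3 held in all 15. Since Inha and Amhr2 are also genes of granulosa cells, 8 granulosa markers outside the 10 genes were read. Fshr was listed at 0 in every library, and Cyp19a1, Nr5a2 and Esr2 reached at most 0.102 TPM. Their sum was 48.9 to 63.6 TPM with TGFB1 and 64.5 to 74.9 TPM without, nearly all of it Kitl (33.9 ± 8.39 and 50.6 ± 4.36 TPM, called lower) and the transcription factor gene Foxl2 (22.7 ± 0.549 and 18.5 ± 1.15 TPM, called higher), whose calls held in 7 and 11 of 15 alternatives. The part of these markers in the falls of Inha and Amhr2 was not tested. Of 7 immune markers, 5 were under 1 TPM in every library and Itgam reached at most 1.11 TPM, whereas Cd68 was at 8.79 ± 1.42 TPM with TGFB1 and 22.7 ± 4.09 TPM without. Of 6 endothelial markers, 5 were under 1 TPM in every library, with Cldn5 listed at 0, and Pecam1 was at 1.43 ± 0.265 TPM with TGFB1 and 0.989 ± 0.108 TPM without. Among 7 fibroblast markers the proteoglycan gene Dcn was abundant (616 ± 28.0 TPM with TGFB1 and 1362 ± 112 TPM without) and Pdgfra was at 7.65 ± 0.326 and 6.34 ± 1.33 TPM. Lum, Dpt and Tcf21 were under 1 TPM in every library, and Pdgfrb and Col15a1 reached at most 1.04 and 1.12 TPM. Among 7 theca and luteal markers Star, a gene of steroid-making cells, was at 143 ± 55.7 TPM with TGFB1 and 300 ± 23.9 TPM without, and Ptch1 was at 9.94 ± 1.39 and 11.2 ± 1.19 TPM. Insl3 reached at most 2.04 TPM, Cyp17a1, Cyp11a1 and Hsd3b1 were under 1 TPM in every library, and Lhcgr was listed at 0.

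Of the called genes, Gdf6 had no promoter window in the source used, and the windows of Inha and Acvr1 overlapped annotated exons. For the other 3, the 250 bases before the start site are shown, outside every annotated exon: Amhr2 (lower), Gdf15 and Inhbb (higher). They are RefSeq windows on GRCm38.p6, each 5′ to 3′ on the gene's own strand and ending at the base before the start site, at chr15:102445117-102445366 (plus strand), chr8:70632457-70632706 (minus strand) and chr1:119422249-119422498 (minus strand). Capitals mark the motifs found, read on both strands.
Amhr2: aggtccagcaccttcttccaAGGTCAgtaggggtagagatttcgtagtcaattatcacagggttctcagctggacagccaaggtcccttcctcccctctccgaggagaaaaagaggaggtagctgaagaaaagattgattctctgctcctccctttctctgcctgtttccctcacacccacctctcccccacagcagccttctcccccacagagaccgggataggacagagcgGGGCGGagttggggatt
Gdf15: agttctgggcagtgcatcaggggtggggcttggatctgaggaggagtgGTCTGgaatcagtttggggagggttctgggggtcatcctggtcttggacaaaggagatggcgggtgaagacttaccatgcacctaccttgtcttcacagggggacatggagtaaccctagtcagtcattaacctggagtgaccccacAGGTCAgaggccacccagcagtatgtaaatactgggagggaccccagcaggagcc
Inhbb: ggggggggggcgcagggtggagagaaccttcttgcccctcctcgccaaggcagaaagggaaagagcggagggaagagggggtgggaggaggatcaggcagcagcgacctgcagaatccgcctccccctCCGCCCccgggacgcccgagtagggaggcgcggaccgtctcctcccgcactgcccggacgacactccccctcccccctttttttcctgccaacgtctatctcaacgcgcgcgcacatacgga
The 7 motifs searched were the SMAD-binding palindrome GTCTAGAC, the shorter SMAD-binding element CAGAC, the cAMP response element TGACGTCA, the AP-1 element TGANTCA (N is any base), AGGTCA, which steroidogenic factor SF-1 and other nuclear receptors read, the GC box GGGCGG and the TATA box TATAAA. The Amhr2 window held AGGTCA from 230 to 225 bases before the start and GGGCGG from 17 to 12 bases before it. The Gdf15 window held CAGAC in reverse (as GTCTG) from 202 to 198 bases before the start and AGGTCA from 55 to 50 bases before it, and the Inhbb window held GGGCGG in reverse (as CCGCCC) from 122 to 117 bases before it. No match overlapped another. A second Gdf15 window, at another annotated start, has 196 bases in exons and is not shown. It held CAGAC in reverse from 116 to 112 bases before that start. Among 32851 windows of the same length, 14% held AGGTCA, 42.2% CAGAC and 32.7% GGGCGG. The other 4 motifs were absent from these 3 windows and occur in 0.167% (GTCTAGAC), 1.55% (TGACGTCA), 6.75% (TGANTCA) and 12.4% (TATAAA) of all windows. A match is a description of letters and not a site shown to be bound. GC content was 55.2% for Amhr2, 56.4% for Gdf15 and 68% for Inhbb, and the median over all windows was 52.4%.

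Gdf6, which encodes a BMP-like ligand known in mice for its part in joint and skeletal patterning, spans chromosome 4, 9844372 to 9862345, plus strand (GENCODE M21 on GRCm38), in 2 exons, with no overlapping gene. Its abundance was 134, 84.0 and 74.3 TPM in TGFB1 replicates 1, 2 and 3, against 13.5, 9.95 and 15.5 TPM in untreated replicates 1, 2 and 3. Every treated library was above every untreated one, by a wide margin, and replicate 1 was the highest. The means differed 7.52-fold (log2 fold change 2.79, SE 0.244, adjusted p = 0.000758), which was the 30th largest rise among all tested genes. The call held in all 15 alternative fits, with log2 fold changes of 2.48 to 2.96 and adjusted p of 0.00018 to 0.00652.

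Gdf15, a distant member of the superfamily that many cells secrete under stress and that signals through the receptor GFRAL in the hindbrain, lies on chromosome 8 at 70629393 to 70632456 on the minus strand. It was at 6.96, 5.95 and 5.98 TPM in TGFB1 replicates 1, 2 and 3, against 2.81, 2.28 and 2.87 TPM in untreated replicates 1, 2 and 3. The treated libraries lay close together and all above the untreated ones, with means 2.37-fold apart (log2 fold change 0.999, SE 0.118, adjusted p = 0.00196). The fold depends on the pseudocount at this low level, from 0.56 with 5 TPM to 1.22 with 0.1 TPM on the log2 scale, and the gene was called in each of the 14 alternative fits that tested it (adjusted p 0.00151 to 0.0102). The genes of its known receptor pair, Gfral and Ret, were listed at 0 and at up to 0.0415 TPM.

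Because Gdf15 is a known target of ATF4, CHOP and p53, 12 genes of those responses were read beside it. The median log2 fold change of the 12 was 0.00 to 2 decimals, against 0.02 over all tested genes. Of the 12, 4 rose and 2 fell (limma), where 15.8% of all tested genes were called higher and 14.6% lower. Those that rose included Cdkn1a, which encodes the cell cycle inhibitor p21, and the mTOR inhibitor gene Ddit4. Cdkn1a was at 183 ± 41.9 TPM with TGFB1 and 88.6 ± 13.1 TPM without (limma, log2 fold change 1.02, adjusted p = 0.00633). Ddit4 was at 166 ± 15.6 and 94.6 ± 3.89 TPM. The 2 that fell were Ddit3, which encodes CHOP, at 62.8 ± 3.38 and 126 ± 19.6 TPM, and its target Chac1, at 22.9 ± 3.91 and 42.9 ± 9.96 TPM. The p53 targets Mdm2 (log2 fold change 0.39) and Ccng1 (0.41) rose too, and Mdm2 was not called without any one untreated library or with no filter (adjusted p 0.0668 to 0.0956 in those 4 fits). Atf4 itself, which encodes ATF4, showed no call (217 ± 37.4 and 230.5 ± 21.6 TPM, adjusted p = 0.616). Without TGFB1 replicate 1 the count of falls was 4, with Trib3 and Asns added, and the count of rises 5, with Bbc3 added. The part of these responses in the rise of Gdf15 was not tested.

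Inhbb, the beta-B subunit of activin B and inhibin B, was the most abundant subunit gene in both groups. It lies on chromosome 1 at 119415465 to 119422248 on the minus strand and was at 49.5, 51.0 and 48.5 TPM in TGFB1 replicates 1, 2 and 3, against 41.2, 36.7 and 41.6 TPM in untreated replicates 1, 2 and 3. The groups were tight and did not overlap, so that a mean ratio of only 1.25 passed the test (log2 fold change 0.31, SE 0.0692, adjusted p = 0.0169). Leaving out TGFB1 replicate 2 ended the call (adjusted p = 0.0607), and the other 14 alternatives kept it (0.0096 to 0.0438).

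Inhba, the beta-A subunit of activin A and inhibin A, spans chromosome 13, 16011851 to 16031621, plus strand, and was far lower. It was at 4.55, 2.60 and 2.08 TPM in TGFB1 replicates 1, 2 and 3, against 2.01, 1.0 and 1.46 TPM in untreated replicates 1, 2 and 3. The groups did not overlap but nearly touched, at 2.08 and 2.01 TPM, and the spread within each was wide. The log2 fold change of 0.69 (95% interval 0.07 to 1.30) had an unadjusted p of 0.0334 and did not pass after adjustment (limma, adjusted p = 0.0879).

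Inha, the alpha subunit that turns a beta subunit into an inhibin, moved the other way. It spans chromosome 1, 75507077 to 75510366, plus strand, and was at 7.25, 10.7 and 11.5 TPM in TGFB1 replicates 1, 2 and 3, against 16.0, 18.05 and 16.6 TPM in untreated replicates 1, 2 and 3. All treated values were under all untreated ones, with replicate 1 the lowest (log2 fold change -0.75, SE 0.161, adjusted p = 0.0152). The call was lost without untreated replicate 2 (adjusted p = 0.056) or untreated replicate 3 (0.0529), and the adjusted p was 0.00355 without TGFB1 replicate 1, the lowest of the 15 alternatives.

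Set against each other within a library, Inha was lower than Inhbb and higher than Inhba in all 6 libraries. The ratio of Inha to the sum of Inhba and Inhbb on the TPM scale was 0.134, 0.200 and 0.227 in TGFB1 replicates 1, 2 and 3, against 0.370, 0.478 and 0.386 in untreated replicates 1, 2 and 3. The ratio was thus lower in each treated library than in any untreated one, with means of 0.187 ± 0.0480 with TGFB1 and 0.411 ± 0.0585 without. Inhbb exceeded Inhba by 10.9 to 23.3 times in the treated libraries and 20.6 to 36.7 times in the untreated ones, ranges that overlap. These are ratios of RNA, and dimers of the proteins were not measured.

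The genes of the activin-binding proteins did not pass the test. Fst encodes follistatin, which wraps activin and keeps it from its receptors, and lies on chromosome 13 at 114452290 to 114458951 on the minus strand. Fst was at 4.05, 5.21 and 4.95 TPM in TGFB1 replicates 1, 2 and 3 and at 5.87, 4.52 and 4.54 TPM in untreated replicates 1, 2 and 3. The groups overlapped, and the 95% interval of the log2 fold change, -0.38 to 0.26, spans changes of either sign (limma, adjusted p = 0.778).

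Fstl3, which encodes a follistatin-like protein that also binds activin and myostatin, was the lowest of the 10 genes. It was at 0.659, 0.942 and 0.968 TPM in TGFB1 replicates 1, 2 and 3 and at 1.47, 1.45 and 0.779 TPM in untreated replicates 1, 2 and 3. The groups overlapped through untreated replicate 3 (log2 fold change -0.25, 95% interval -0.71 to 0.20, adjusted p = 0.353). With a mean of 1.04 TPM it only just passed the filter. Its values are uncertain for another reason: on chromosome 10 at 79777272 to 79782630 its exons share 1157 bases with Prss57 on the opposite strand, and 46.7% of its 31-base words occur in another gene. The sources used here do not say whether quantification used strand. The ratio of Inhba plus Inhbb to Fst plus Fstl3 was 8.56 to 11.5 in the treated libraries and 5.89 to 8.10 in the untreated ones. These ranges lay close, and the ratio was not tested. It divides by the sum of Fst and Fstl3, which were both low and not called, and free activin protein was not measured.

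**Figure D2:**
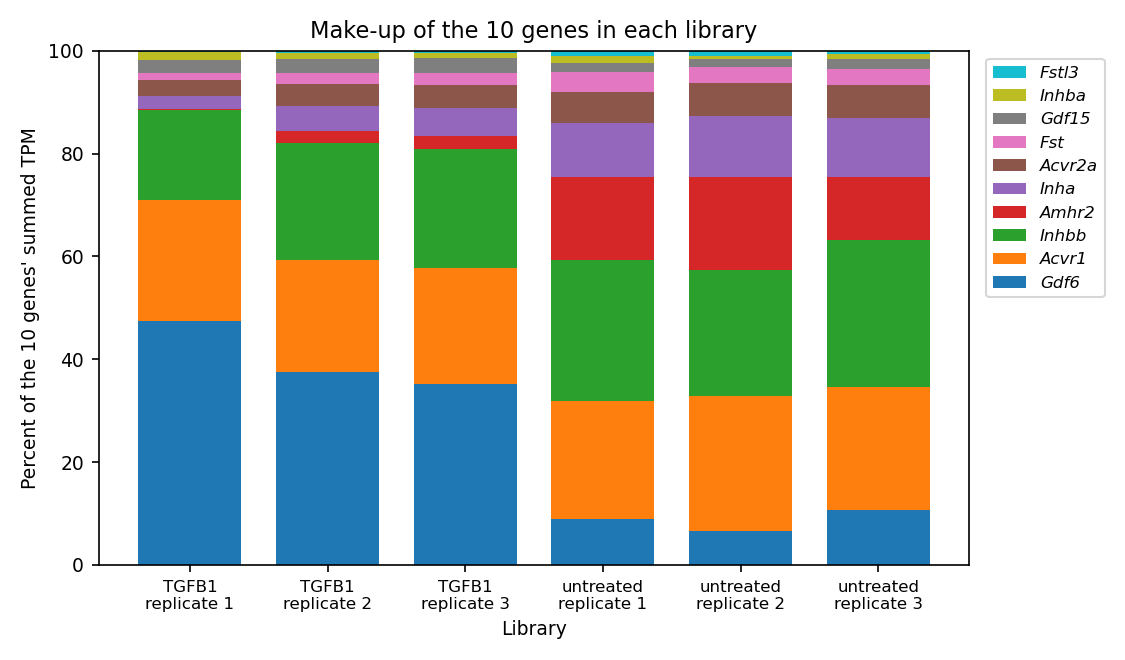
Share of the 10 genes' summed TPM taken by each gene (percent, y axis) in each library (x axis), TGFB1 libraries on the left. Gdf6 takes 35.3% to 47.5% with TGFB1 and 6.64% to 10.7% without, and Amhr2 0.226% to 2.52% with TGFB1 and 12.3% to 17.9% without.

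Amhr2, the type II receptor that binds AMH and no other known ligand, spans chromosome 15, 102445367 to 102454633, plus strand, with no overlapping gene and no shared 31-base words. It was at 0.639, 5.29 and 5.31 TPM in TGFB1 replicates 1, 2 and 3, against 24.1, 26.9 and 17.8 TPM in untreated replicates 1, 2 and 3. All treated libraries were far under all untreated ones, and replicate 1 was far under the other treated libraries. The treated mean was 0.163 times the untreated one (log2 fold change -2.55, SE 0.516, 95% interval -3.78 to -1.33, adjusted p = 0.0121), the 16th largest fall among all tested genes. The gene was called lower in all 15 alternatives (adjusted p 0.000451 to 0.0485), but the size depended on 1 library and on the pseudocount. It was -1.91 without TGFB1 replicate 1, -3.03 with a pseudocount of 0.1 TPM and -1.71 with 5 TPM. The ligand gene Amh was low in both groups, at 0.215 ± 0.107 TPM with TGFB1 and 0.273 ± 0.0821 TPM without, and lay under the filter of the main fit. With no filter it was not called (limma, log2 fold change -0.07, adjusted p = 0.643).

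Acvr1, the type I receptor ALK2 through which BMPs and AMH signal, lies on chromosome 2 at 58388644 to 58567157 on the minus strand. It was at 66.2, 48.9 and 47.4 TPM in TGFB1 replicates 1, 2 and 3, against 34.4, 39.4 and 34.6 TPM in untreated replicates 1, 2 and 3. The treated libraries were all higher, replicate 1 most of all (ratio of means 1.5, log2 fold change 0.56, SE 0.135, adjusted p = 0.0227). The call was lost with no filter (adjusted p = 0.0581) and without untreated replicate 1 (0.0756) or 3 (0.0799), and its lowest adjusted p among the alternatives was 0.00876.

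Acvr2a, a type II receptor shared by activins and several BMPs, spans chromosome 2, 48814109 to 48903269, plus strand. It was nearly level, at 8.78, 9.39 and 9.50 TPM in TGFB1 replicates 1, 2 and 3 and at 8.85, 9.64 and 9.28 TPM in untreated replicates 1, 2 and 3. The groups overlapped, and the 95% interval of the log2 fold change ran from -0.19 to 0.18 (adjusted p = 0.969). Of its 31-base words 7.32% occur in another gene, and its exons share 446 bases with Orc4 on the opposite strand.

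On the TPM scale, which is per transcript length, the order of levels differed between the groups. With TGFB1 it ran Gdf6 (97.6 TPM), Acvr1 (54.2), Inhbb (49.7), Inha (9.83), Acvr2a (9.22), Gdf15 (6.30), Fst (4.74), Amhr2 (3.75), Inhba (3.08) and Fstl3 (0.856). Without TGFB1 it ran Inhbb (39.9 TPM), Acvr1 (36.1), Amhr2 (22.9), Inha (16.9), Gdf6 (12.98), Acvr2a (9.26), Fst (4.98), Gdf15 (2.65), Inhba (1.49) and Fstl3 (1.23). Neighbours whose ranges overlapped with TGFB1 were Acvr1 and Inhbb, Inha and Acvr2a, Fst and Amhr2, and Amhr2 and Inhba. Without TGFB1 they were Inhbb and Acvr1, Amhr2 and Inha, and Inhba and Fstl3. The summed level of the 10 genes was 283, 224 and 210 TPM in TGFB1 replicates 1, 2 and 3, against 150.3, 149.9 and 145 TPM in untreated replicates 1, 2 and 3, and Gdf6 held most of that difference.

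Among the receptors that act beside these, 2 of 10 tested rose and 1 fell, of 17 listed, with a median log2 fold change of 0.00. Of all tested genes, 15.8% were called higher and 14.6% lower, with a median of 0.02. The same shares and median stand beside the ligand, modulator, SMAD and convertase lists below. Tgfbr3 encodes betaglycan, the co-receptor that gives inhibin its grip on activin type II receptors. It fell to 9.66 ± 4.47 TPM with TGFB1, against 51.2 ± 4.03 TPM without (log2 fold change -2.40, SE 0.331, adjusted p = 0.00326), beside -2.55 for Amhr2. By library it was at 4.503, 12.3 and 12.2 TPM in TGFB1 replicates 1, 2 and 3, against 54.7, 52.2 and 46.8 TPM in untreated replicates 1, 2 and 3. It was called in all 15 alternatives (log2 fold changes -2.61 to -1.98). Bmpr2, the type II receptor for BMPs, rose to 32.7 ± 3.00 TPM, against 21.6 ± 2.53 TPM (log2 fold change 0.58, adjusted p = 0.0082). Acvrl1, the type I receptor ALK1, rose to 7.33 ± 1.06 TPM, against 2.71 ± 1.0 TPM (log2 fold change 1.20, adjusted p = 0.00709). The activin type I receptor gene Acvr1b (16.4 ± 3.48 TPM with TGFB1 and 18.6 ± 2.49 TPM without), Acvr2b (3.09 ± 0.880 and 3.08 ± 0.562 TPM) and Bmpr1a (49.3 ± 5.30 and 54.1 ± 6.29 TPM) did not pass (adjusted p 0.45, 0.974 and 0.41).

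Most other ligand genes of these branches were near 0: of 25 listed, 4 were tested. Gdf11, a close relative of myostatin, rose to 19.5 ± 0.537 TPM with TGFB1, against 11.5 ± 0.490 TPM without (log2 fold change 0.71, adjusted p = 0.00101). The BMP gene Bmp6 rose to 37.6 ± 0.112 TPM, against 24.3 ± 1.85 TPM (log2 fold change 0.61, adjusted p = 0.00194), and the median over the 4 was 0.19. None of the 4 was called lower by limma, though 1 had an unadjusted p under 0.05. That gene, Bmp4, was chosen after its values were seen: it was at 30.0, 65.9 and 85.5 TPM in TGFB1 replicates 1, 2 and 3, against 100.1, 127.8 and 119.9 TPM in untreated replicates 1, 2 and 3 (adjusted p = 0.0638, and 0.0179 to 0.165 over 15 alternatives). The groups did not overlap, but the treated values were widely spread.

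Of 17 other secreted or membrane modulators 6 were tested, of which 2 rose and 1 fell, with a median log2 fold change of 0.21. Fstl1, a follistatin-like glycoprotein gene, rose to 302 ± 4.31 TPM with TGFB1, against 112 ± 4.74 TPM without (log2 fold change 1.42, SE 0.0538, adjusted p = 0.000101). Bmper, a secreted BMP-binding protein gene, rose to 134 ± 5.43 TPM, against 85.3 ± 7.14 TPM (log2 fold change 0.65). The BMP antagonist gene Nbl1 fell to 154 ± 64.8 TPM, against 370 ± 43.9 TPM (log2 fold change -1.36, adjusted p = 0.0232), a call lost with no filter and without any one untreated library (adjusted p 0.0611 to 0.0782 in those 4 fits). It was at -0.94 without TGFB1 replicate 1, where it was called.

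Of 8 SMAD genes, 3 rose and 1 fell, with a median log2 fold change of 0.13. The BMP-branch genes Smad5 (23.4 ± 1.18 TPM with TGFB1 and 17.7 ± 1.46 TPM without) and Smad1 (15.6 ± 1.75 and 11.9 ± 0.248 TPM) rose, as did the activin-branch gene Smad2 (57.3 ± 0.899 and 49.99 ± 2.40 TPM). Smad9, also a BMP-branch gene, went the other way. It fell to 4.31 ± 2.05 TPM, against 9.72 ± 0.717 TPM (log2 fold change -1.10, adjusted p = 0.0344). None of these 4 calls held in every alternative: of 15, Smad5 was called in 12, Smad9 in 11, Smad1 in 9 and Smad2 in 4. The feedback inhibitor gene Smad7 was not called (42.7 ± 4.52 and 34.9 ± 4.18 TPM, adjusted p = 0.0949, and 0.0243 to 0.258 over 15 alternatives, of which 1 called it). Among 4 proprotein convertase genes, whose products cut these ligands to their active form, Furin rose to 77.7 ± 16.2 TPM, against 49.1 ± 3.70 TPM, and Pcsk5 fell to 7.502 ± 1.15 TPM, against 11.2 ± 0.757 TPM. The Furin call was lost without untreated replicate 1 or 3 and the Pcsk5 call with no filter or without untreated replicate 2 or 3, where the adjusted p reached at most 0.0692.

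**Figure D3:**
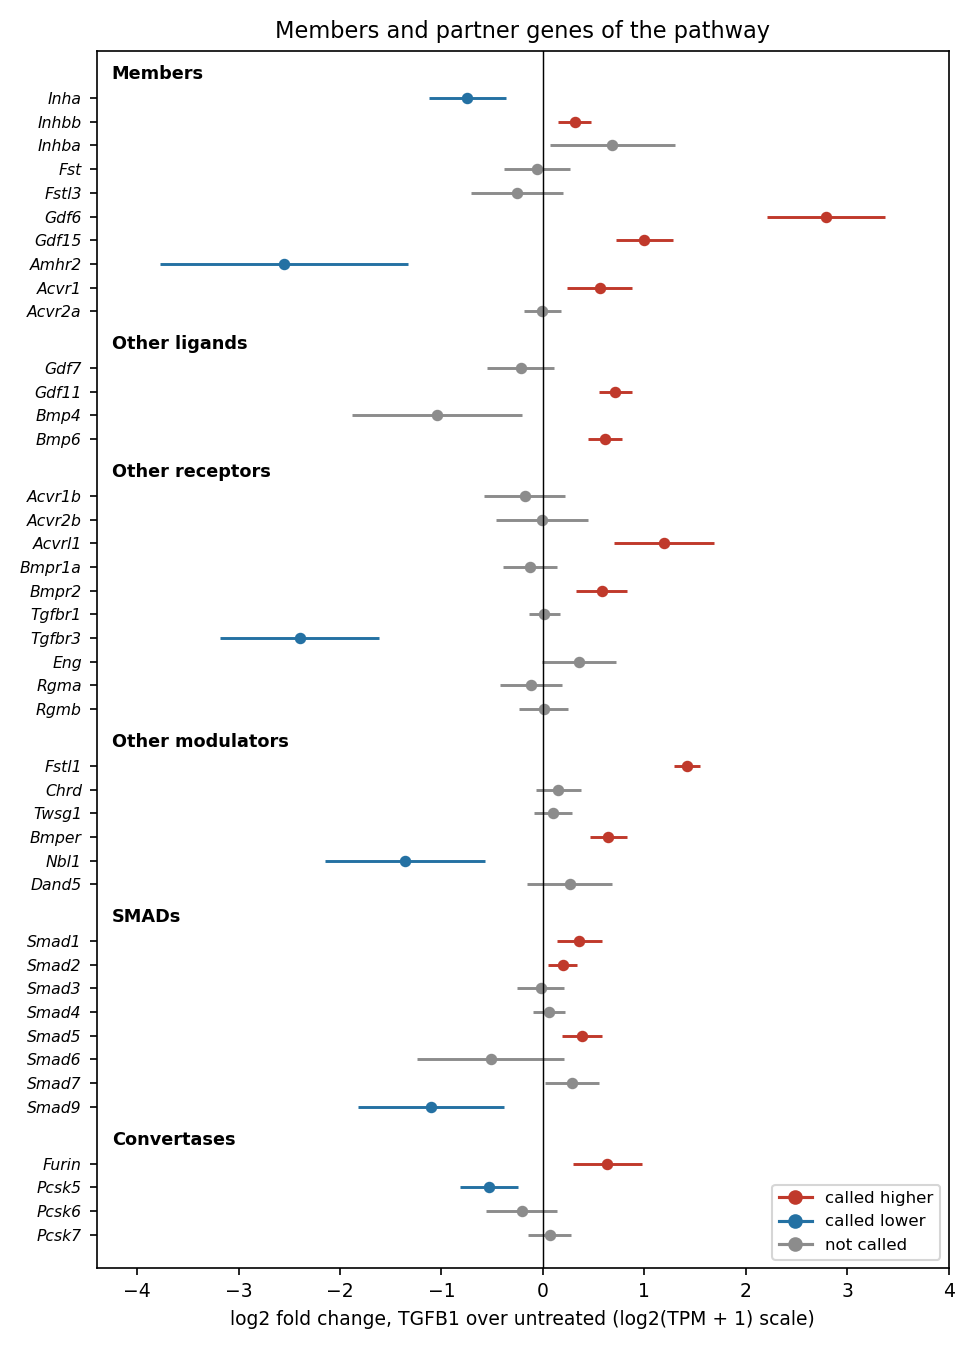
Log2 fold change, TGFB1 over untreated, on the log2(TPM + 1) scale (x axis) with the limma 95% interval for the 10 genes and the tested partner genes by role; colour gives the call. Gdf6 (2.79) and Amhr2 (-2.55) lie farthest from 0 among the 10, and Tgfbr3 (-2.40) lies near Amhr2.

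**Figure D4:**
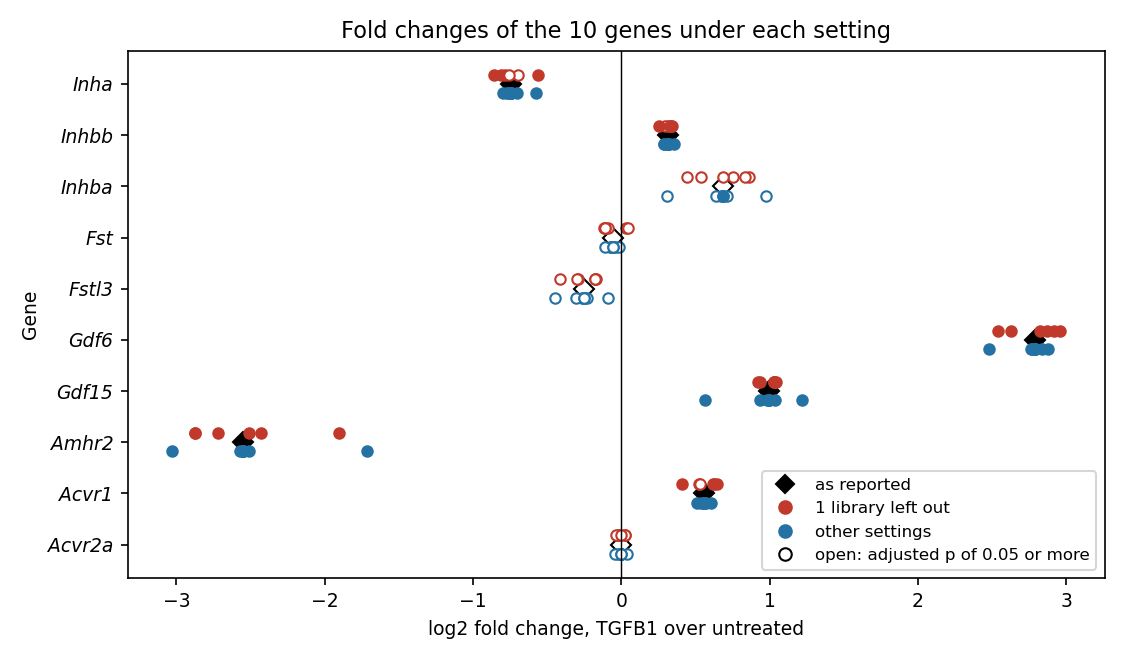
Log2 fold change of each of the 10 genes, TGFB1 over untreated (x axis), as reported, with 1 library left out and under the other settings; open symbols have an adjusted p of 0.05 or more. Gdf6, Gdf15 and Amhr2 stay filled in every setting that tested them, and Inhba is filled in 1 of 14.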

How the data were processed

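Gene abundances of 6 libraries of poly(A)-selected RNA, made from 250 ng of total RNA with a strand-marking kit per the labels' protocols, were read from 1 deposited table. The deposited values, called TPM per the labels, form a signal on a TPM scale; column totals of 983434 to 1026702 show that they are not plain TPM, for which the test had been planned, and the same log-scale test was kept. GRCm38, sleuth 0.30.0 and kallisto 0.44.0 are named, with no roles, in the submitters' processing notes; no source used here gives the annotation, the strand setting or how transcripts were summed. The table holds no counts, so depth is unknown and counting intervals cannot be given.

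The 12257 genes averaging 1 TPM or more were fitted as log2(TPM + 1) with limma 3.58.1 in R 4.3.3 (lmFit, eBayes with a trend, two-sided, Benjamini-Hochberg over all tested genes, called at 0.05). This scale understates the change of low genes. Groups and replicate numbers came from the labels, and the steps were tested on simulated data. The deposited columns carry the prefix Mono, which the sample titles lack, and were tied to samples by group and replicate number. No column was left unused.

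Named genes are the 10, up to 4 called genes with the largest change in each partner list, 6 partners fixed by name (Acvr1b, Acvr2b, Bmpr1a, Bmpr2, Amh, Tgfbr3) and Smad7; 1 further gene is not reported here. Mdm2, Ccng1, Atf4, Trib3, Asns, Bbc3, Bmp4, Gfral, Ret, Nog, Bambi and the single markers named lie outside this rule and were chosen after their values were seen. The 10 genes and the lists were chosen with earlier results of these data known. Positions are those of GENCODE M21, which held 35022 of the 35688 gene IDs. Shared sequence is the percent of a gene's 31-base words found in another gene. Promoter windows are RefSeq's, matched by symbol for 8 of the 10 genes, with none for Gdf6 and Fst. Alternatives were other pseudocounts, filters, scalings, no trend, a replicate block and each library left out.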

Additional observations from a re-analysis of the deposited data

How the results depend on the processing

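Over 15 alternatives Gdf6, Gdf15 and Amhr2 kept their direction and their call wherever they were tested; Inha, Inhbb and Acvr1 kept their direction but not always their call. A filter of 5 TPM left Inhba, Fst, Fstl3 and Gdf15 untested. Depth is unknown, and the values near 1 TPM of Fstl3 and Inhba are the least precise.

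Leaving out 1 library at a time gave log2 fold changes of -0.86 to -0.56 for Inha, 0.26 to 0.34 for Inhbb, 0.41 to 0.64 for Acvr1, -0.12 to 0.047 for Fst, which was above 0 without TGFB1 replicate 1 (0.03) or untreated replicate 1 (0.047), and -0.034 to 0.027 for Acvr2a, above 0 without TGFB1 replicate 1 (0.027) or untreated replicate 2 (0.02). With libraries rescaled on all genes but the mitochondrial and 20 most abundant ones, Acvr2a was at 0.04. None of these Fst or Acvr2a values was called. With no filter Acvr1 was at 0.56 and not called, more genes then being tested.

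Members called lower with 1 library left out numbered 1 to 2. All tested genes called higher ran from 1113 (without untreated replicate 3) to 2024 and those called lower from 917 to 1926; without untreated replicate 1 they were 1181 and 1130, and 1125 were lower without untreated replicate 2. After the rescaling 2352 were higher and 1443 lower, 62% of calls higher against 52% as deposited.

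In the lists, limma called 0 to 2 SMAD genes higher and 0 to 1 lower with 1 library left out (2 to 4 and 1 at an unadjusted p under 0.05), 0 to 1 convertase gene higher and 0 to 1 lower (1 each unadjusted), 0 to 1 other modulator lower (1 unadjusted), 0 to 1 other ligand lower (Bmp4) and 2 to 4 stress genes lower. With no filter 1 SMAD gene was higher (Smad5), and 0 SMAD, modulator and convertase genes were lower (1 each unadjusted). The cause was not tested.

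Both groups carry replicate numbers 1 to 3. The deviations of same-numbered libraries correlated at 0.198, 0.153 and -0.0384, and those of differently numbered ones at -0.227 to 0.184. The ranges overlap, so these values do not decide whether the numbers pair the samples, and the main fit took no pairing. With the replicate block 1906 genes were higher and 1924 lower, Inhba was called higher (0.69, adjusted p = 0.0377, and up to 0.227 over its 14 alternatives) and 1 other ligand gene, Bmp4, lower; no other call among the 10 genes changed. Among the SMAD genes Smad7 was then called higher (adjusted p = 0.0243) and Smad2 was not called (0.0673).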

Other observations

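The groups of Nog and Bambi did not overlap. Among all tested genes this held for 49.8%, but both genes lay under the abundance filter and so outside that set. They were chosen after their values were seen, and neither was called in the fit with no filter (limma, adjusted p = 0.0526 for Nog and 0.137 for Bambi). Nog, which encodes the BMP antagonist noggin, was at 1.96, 0.608 and 0.974 TPM in TGFB1 replicates 1, 2 and 3, against 0.0415, 0.142 and 0.149 TPM in untreated replicates 1, 2 and 3. Bambi, a membrane pseudoreceptor gene that dampens TGFB-family signals, was at 0.885, 0.933 and 0.626 TPM with TGFB1, against 0.361, 0.619 and 0.450 TPM without. At these levels the precision of each value is unknown.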
